A study of Mus musculus with 192 samples.

Results

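The wells described here are 26 single mouse embryonic stem (ES) cells, the 13 with the most and the 13 with the least mRNA of Dppa5a, out of 96 wells of 1 microfluidic chip. Members were chosen by the measured level of Dppa5a itself. A well was ranked when it held at least 53000 gene molecules, at most 30000 spike-in molecules and under 25 molecules of Krt8 and Krt18 together per 10000 gene molecules, and well E02 was left out. Of the 96 wells 39 met these limits, and their 13 highest, 13 middle and 13 lowest wells by Dppa5a per 10000 gene molecules are called high, middle and low wells below. Of the other wells, 46 fell short of the gene molecules alone, 7 exceeded the keratin limit, 2 exceeded the spike-in limit, 1 failed both on gene molecules and on keratins, and the last was E02.

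All cells came from the R1 mouse ES line, grown without any treatment that differed between wells on irradiated mouse embryonic fibroblast feeders. The feeders were allowed to settle out, dead and early apoptotic cells were depleted, and the cells were frozen and thawed before they were loaded on the chip. Every mRNA molecule was tagged before amplification, so that values are molecules and not reads. All wells are cells of 1 culture on 1 chip, so the groups are wells of 1 sample: no p-value was computed, SDs are over wells, and counting intervals are exact at the 95% level and cover counting error only.

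Dppa5a, also called Esg1, encodes a small KH-domain RNA-binding protein of the early embryo, the germ line and pluripotent stem cells. Mouse ES cells in serum drift between a naive state, which resembles the inner cell mass and is marked by transcription factors such as Rex1 (Zfp42), Esrrb, Klf2 and Tfcp2l1, and states closer to the epiblast about to differentiate, in which these genes are low and genes such as Pou3f1, Fgf5 and Otx2 are higher. Oct4 (Pou5f1), Sox2 and Nanog form the core pluripotency circuit shared by these states.

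Dppa5a lies on chromosome 9 at chr9:78367052-78368177 on the minus strand (GRCm38, the build of the deposited table). Start and end of this gene, and of Tdh and Ooep below, are from the GENCODE annotation. The high wells held 95.8 to 181 molecules of Dppa5a per 10000 gene molecules with a median of 119, the middle wells 57.5 to 95.3 with a median of 92.2, and the low wells 15.4 to 57.3 with a median of 30.8. The mean was 127 ± 28.4 (SD, n = 13) in the high and 31.4 ± 14.7 (SD, n = 13) in the low wells, a ratio of 4.04, which the ranking itself fixed. The borders fell between close neighbours: the lowest high well held 95.75 and the highest middle well 95.31, and the lowest middle well held 57.50 and the highest low well 57.27. The nearest well left out for too few gene molecules held 52812, and the shallowest wells kept, A08 in the high and D02 in the low group, held 53975 and 55334.

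The total RNA of the groups was similar. High wells held 97708 ± 22379 gene molecules and low wells 100005 ± 18933 (SD, n = 13 each), and per spike-in molecule they held 12.6 ± 2.22 and 12.5 ± 1.86. After thinning every well to 53000 gene molecules, 5576 ± 182 genes were detected in high and 5647 ± 346 in low wells (SD, n = 13 each). The mitochondrial share of molecules was 11.9% ± 2.57 in high and 10.3% ± 2.27 in low wells, and that of ribosomal protein genes 14.4% ± 0.931 and 14.3% ± 1.33 (SD, n = 13 each). The summed level of 11 ES cell markers was 15.1 to 58.2 in the high wells and 16.1 to 34.4 in the low wells without D02, which had 8.15. Every one of these 11 markers was detected in both groups.

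Well D02, the lowest in Dppa5a, stood apart from the other low wells. Its summed level of 10 feeder fibroblast markers was 165, against 4.36 to 11.5 in the high wells and 5.57 to 27.02 in the other low wells, of which A03 had 27.02 and C02 18.2. D02 held 240 molecules of S100a6, 123 of Tagln and 116 of Vim. Its 3 molecules of Pou5f1 were a level of 0.543, beside 0.568 in the low well G04. But D02 held none of Col1a1, Col1a2, Col3a1 or Thy1, the collagen and surface genes that define fibroblasts. In the other wells these 4 defining genes were at or near 0 as well, with Thy1 at 0 throughout and at most 5 molecules of any of them over 13 wells. Among the high wells A08 stood apart: it held 57 molecules of Zscan4 genes, which mark a rare state like the embryo at its first cleavage, while no other ranked well held more than 2. Values without D02 or A08 are given beside the results that they move most.

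Values from here on are levels: molecules per 10000 gene molecules with Dppa5a left out of the total, and ratios are the mean level of the high wells over that of the low wells. A gene was called past the ratio at 1.5 or more either way, among the 1533 genes with a mean level of at least 1 over the 39 wells. Of these, 106 genes (6.91%) were higher and 119 (7.76%) lower in the high wells. Without D02, 93 (6.07%) were higher and 119 (7.76%) lower, and 90 and 98 genes were past the ratio both ways. The median log2 ratio of all 1533 genes was -0.03. Most calls fell among scarce genes: 96 higher and 105 lower of the 1039 genes at levels of 1 to under 3, against 10 and 13 of the 368 genes from 3 to under 10, and 0 and 1 of the 126 genes at 10 or more. Among 24 spike-in RNAs with a mean of at least 10 molecules per well 1 passed the same ratio, the scarcest of them at a mean of 10.7. It was 1 of the 15 with a mean of 10 to 100 molecules. The others reached up to 2229, so the 24 do not match in abundance the scarce genes where most calls fell. No gene had groups of wells that did not overlap at all. The middle wells, which entered no ratio, had a mean between those of the high and low wells for 89 of the 106 higher and 84 of the 119 lower genes.

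**Figure D1:**
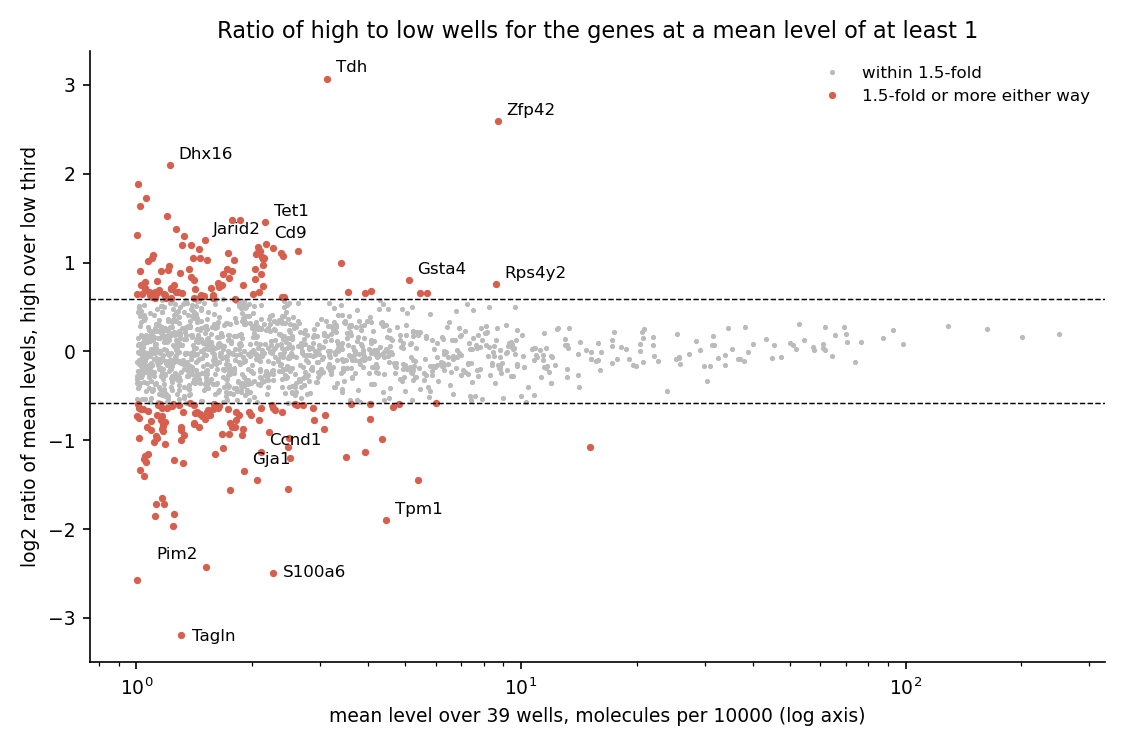
Log2 ratio of the mean level in high over low wells (vertical axis) against the mean level over 39 wells (horizontal log axis, molecules per 10000) for 1533 genes, with dashed lines at a ratio of 1.5 either way. Tdh and Zfp42 lie far above the other genes of their level, while nearly all genes at a level of 10 or more lie within the lines.

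The 2 largest ratios upward belonged to Tdh and Zfp42. Tdh encodes threonine dehydrogenase, the mitochondrial enzyme with which mouse ES cells break down threonine to glycine and acetyl-CoA, and lies at chr14:63492347-63509092 on the minus strand. Its level was 0.365 to 16.3 with a median of 3.65 in the high wells, and 0.419 to 1.24 with a median of 0.591 in the low wells. Of the 13 high wells 11 lay above every low well, as did 8 middle wells. The mean was 5.54 ± 4.62 (SD, n = 13) in high, 3.22 in middle and 0.660 ± 0.231 (SD, n = 13) in low wells, a log2 ratio of 3.07, which stayed between 2.82 and 3.18 when any 1 well was left out. The sums behind it were 744 and 85 molecules, a ratio of 9.04 with a counting interval of 7.22 to 11.5 when pooled over wells.

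Zfp42, a zinc finger protein better known as Rex1 and the classical reporter of the naive state, ranged from 2.07 to 30.6 with a median of 14.6 in the high wells. In the low wells it stayed between 1.50 and 3.20 with a median of 2.45. Again 11 high and 8 middle wells lay above every low well. Its mean was 14.4 ± 9.46 (SD, n = 13) in high, 9.30 in middle and 2.39 ± 0.589 (SD, n = 13) in low wells, a log2 ratio of 2.59, and 2.62 without D02. The pooled sums were 1920 and 305 molecules, a ratio of 6.50 with a counting interval of 5.76 to 7.36. In the table, 59.3% of the Zfp42 molecules rested on reads that map to 1 place only.

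Both genes spread far more among the high wells than among the low wells, and mostly in the same wells. In 10 of the 13 high wells both lay above all low wells, in 1 (G05) Zfp42 alone did, in 1 (C10) Tdh alone did, and in B10 neither did. B10 thus held Dppa5a at a high level with Zfp42 at 2.07 and Tdh at 0.365, both inside the range of the low wells. The middle wells divided in the same way, with both genes above all low wells in 7, Zfp42 alone in 1, Tdh alone in 1 and neither in 4. Over the 39 ranked wells Spearman's rho with Dppa5a was 0.60 for Zfp42 and 0.62 for Tdh, a description over points that share the same totals.

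**Figure D2:**
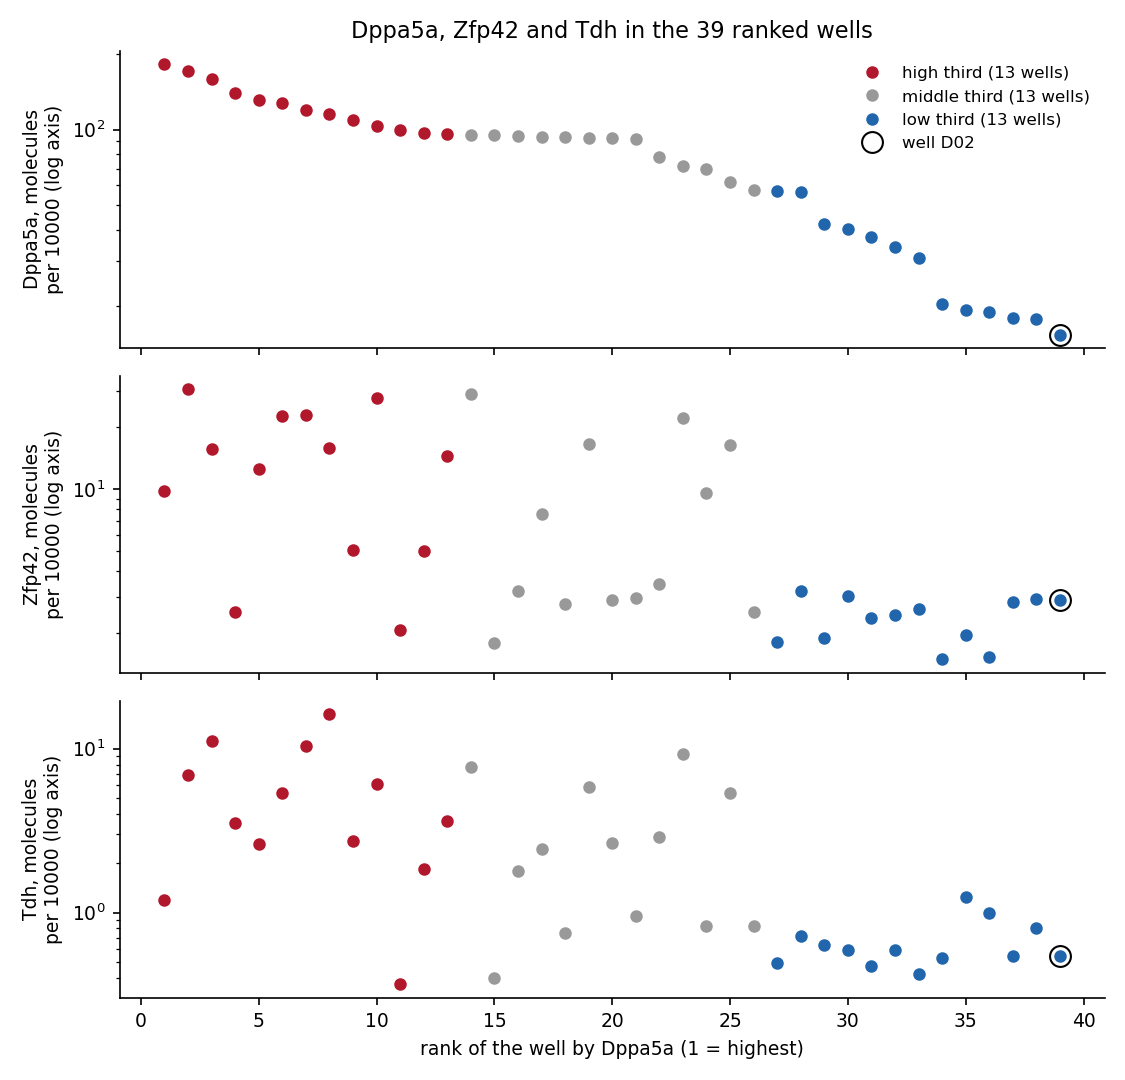
Levels of Dppa5a, Zfp42 and Tdh (molecules per 10000, log axes) in the 39 wells ordered by Dppa5a from highest to lowest. Among the low wells Zfp42 never passes 3.20 and Tdh never passes 1.24, while high and middle wells hold a mix of high and low values.

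Promoters were searched on both strands for 3 motifs of pluripotency factors. The genes taken were the 12 with the largest ratios in each direction. They were chosen among genes with at least 50% unique molecules that kept a set ratio, given under the processing, without any 1 well. That set ratio is under the 1.5 of a call. Some of the 24 were thus not past 1.5 without 1 well, such as Sfn without C02 and Anxa2 without D02. Of the 24, 17 had a promoter in the reference table. Of these, 2 held a match, Zfp42 and Pim2, which are shown for that reason. The motifs were the POU octamer ATGCAAAT, an Esrrb-type TCAAGGTCA and a Klf-type GGGTGTGG, none of which overlap in these windows. Each window holds 250 bases before and 50 after the start of the gene, from RefSeq on GRCm38.p6, with matches in capitals, at chr8:43306960-43307259 on the minus strand for Zfp42 and chrX:7878056-7878355 on the plus strand for Pim2.
Zfp42: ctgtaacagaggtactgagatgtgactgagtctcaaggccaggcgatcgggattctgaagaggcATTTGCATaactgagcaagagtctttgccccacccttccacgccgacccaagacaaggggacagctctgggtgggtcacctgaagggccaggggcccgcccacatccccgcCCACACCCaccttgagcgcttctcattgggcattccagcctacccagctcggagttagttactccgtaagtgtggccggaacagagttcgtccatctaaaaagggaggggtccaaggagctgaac
Pim2: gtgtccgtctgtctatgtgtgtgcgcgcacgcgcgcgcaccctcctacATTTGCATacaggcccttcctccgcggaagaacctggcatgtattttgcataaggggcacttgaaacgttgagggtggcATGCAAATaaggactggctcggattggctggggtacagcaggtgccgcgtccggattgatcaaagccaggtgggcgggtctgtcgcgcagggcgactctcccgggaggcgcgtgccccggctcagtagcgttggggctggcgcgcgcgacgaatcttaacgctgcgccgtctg
Of 32851 promoters of the same length, 1.735% held the octamer, 0.4231% the Esrrb-type and 3.562% the Klf-type motif. A match is a run of letters and says nothing of binding in these cells.

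Other genes were past the ratio upward with fewer molecules. Dhx16, an RNA helicase of splicing, had a median of 1.72 (0.550 to 4.59) in the high wells and 0.412 (0.0946 to 1.05) in the low wells, with 11 high wells above every low well and a log2 ratio of 2.09. Senp3, a SUMO protease of the nucleolus, averaged 1.87 ± 1.44 against 0.650 ± 0.357 (SD, n = 13 each), a log2 ratio of 1.53. Tet1, the enzyme that oxidises methylated cytosine, ranged from 1.43 to 9.62 in the high and from 0.181 to 2.89 in the low wells, and 6 high wells lay above all low wells. Its log2 ratio was 1.46, and 1.36 without D02. Jarid2, an accessory subunit that recruits Polycomb repressive complex 2, averaged 2.31 ± 1.34 against 0.969 ± 0.513 (SD, n = 13 each), and 8 high wells exceeded every low well. Mtf2, another such subunit, averaged 2.02 ± 1.02 against 0.980 ± 0.520 (SD, n = 13 each). Cd9, a tetraspanin of the ES cell surface, averaged 2.97 ± 1.55 against 1.29 ± 0.515 (SD, n = 13 each), and 9 high wells exceeded every low well. Its log2 ratio of 1.21 was -0.03 when the limit on Krt8 and Krt18 was not applied. Prps1 of nucleotide synthesis, the cohesin protector Sgol1 and the histone methyltransferase subunit Ash2l had log2 ratios of 1.19, 1.2 and 1.16. Gnl3, a nucleolar GTPase known as nucleostemin, had a rho of 0.61 with Dppa5a at the smaller log2 ratio of 0.54, with a median of 8.07 in high and 6.44 in low wells.

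Many pluripotency genes are too scarce for a mean level of 1, so each list was also counted over genes with at least 50 molecules over the 26 wells, a filter chosen after the data had been seen. Of 5345 such genes 729 (13.6%) were past the ratio higher and 968 (18.1%) lower, and without D02 679 (12.7%) and 1007 (18.8%). A scarce gene can pass this filter through its high group alone, so the count over all detected members is given beside it. Over all 13212 genes with any molecule in the 26 wells, 45.9% had the higher mean in the high wells.

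The naive list stood on one side. Of its 25 genes 24 were detected, and each of these 24 had the higher mean level in the high wells, with D02 and without it. The list was chosen with earlier results of these cells known. Of 14 members with at least 50 molecules, 11 were past the ratio higher and none lower, beside 13.6% and 18.1% of all genes so filtered, at a median log2 ratio of 1.67. Without D02, and likewise without A08, 9 were past the ratio. The member with the highest ratio was Fbxo15, an F-box gene long used as a reporter of pluripotency, with a median of 0.511 (0 to 5.88) in high and 0.105 (0 to 0.273) in low wells. It had 133 and 16 molecules in all, and 9 high wells lay above every low well. Much of its high mean came from A05 at 5.88 and A08 at 5.26, while no other high well passed 1.66.

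Klf2, a Krüppel-like factor that sustains the naive circuit, was more even among cells: its level was 0.263 to 3.43 in the high and 0 to 0.543 in the low wells, and 11 high wells lay above all low wells, at a log2 ratio of 2.37. Esrrb, an orphan nuclear receptor, had 72 and 11 molecules and a log2 ratio of 2.59. Tfcp2l1, a transcription factor downstream of LIF, had 84 and 14 molecules and a log2 ratio of 2.68. Tcl1, a coactivator of Akt kinase, had 90 and 10 molecules and a log2 ratio of 3.18, which was 3.90 without B09. Spp1, the secreted protein osteopontin, had 210 and 40 molecules. Stat3, the factor that LIF activates, and Zfp57, which guards imprinted methylation, had log2 ratios of 1.11 each. Klf4 and Klf5 lay near the limit at 0.59 and 0.66, and both were under it without D02, at 0.48 and 0.55. Mkrn1, Tet2 and Socs3 were not past the ratio, at 0.52, 0.16 and 0.17. Mkrn1 rested on single wells in both groups. It was past the ratio at 0.86 without D01, which held 9.69. Among the high wells A08 held 15.4 of Mkrn1 and no other more than 4.26. Of the scarcer members, Nr0b1 had 41 and 5 molecules, Pecam1 19 and 0, Gbx2 18 and 3, and Morc1 14 and 0. Single wells weigh on counts this small: without the well that held the most, the low wells had 2 molecules of Nr0b1 and 1 of Gbx2. The high wells without theirs had 29 of Nr0b1, 13 of Pecam1, 8 of Gbx2 and 8 of Morc1.

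Summed without Zfp42, the naive list reached 8.62 to 27.6 with a median of 11.2 in the high wells and 3.44 to 13.2 with a median of 5.45 in the low wells, and 6 high wells lay above every low well. The sum of B10, the high well with low Zfp42 and Tdh, was 10.1, inside the range of both groups. The highest sum, 27.6, was that of A08.

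The core pluripotency genes differed less. Pou5f1 (Oct4) averaged 2.24 ± 0.692 in high and 1.79 ± 0.781 in low wells (SD, n = 13 each), with 3 high wells above every low well and a log2 ratio of 0.32, not past the ratio. Only 42.2% of its molecules rested on unique reads. Nanog had 131 and 83 molecules and a log2 ratio of 0.55, not past the ratio. Its ranges were 0.119 to 2.78 and 0.103 to 2.45, with the highest values in the high well C12 and the low well E09. Without E09 alone the log2 ratio was 0.94, a value that leaves C12 in place. Sox2 was past it, at 1.30 ± 1.04 against 0.614 ± 0.390 (SD, n = 13 each) and a log2 ratio of 1.08. Gdf3, a TGF-beta family ligand, was also past it with 190 and 99 molecules. Utf1 and Tdgf1, a chromatin protein and the Nodal co-receptor Cripto, had log2 ratios of -0.15 and -0.14, within their spread. Of the 18 genes of this list 12 (66.7%, beside 45.9% of all genes) had the higher mean in high and 6 in low wells, and 11 and 7 without D02. All 18 had at least 50 molecules, and 4 were past the ratio higher and 2 lower, with a median of 0.25. The 2 lower were Trp53bp1 and the ES cell marker Lin28a, which had 68 molecules in high and 134 in low wells. Of all genes so filtered 13.6% were higher and 18.1% lower.

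**Figure D3:**
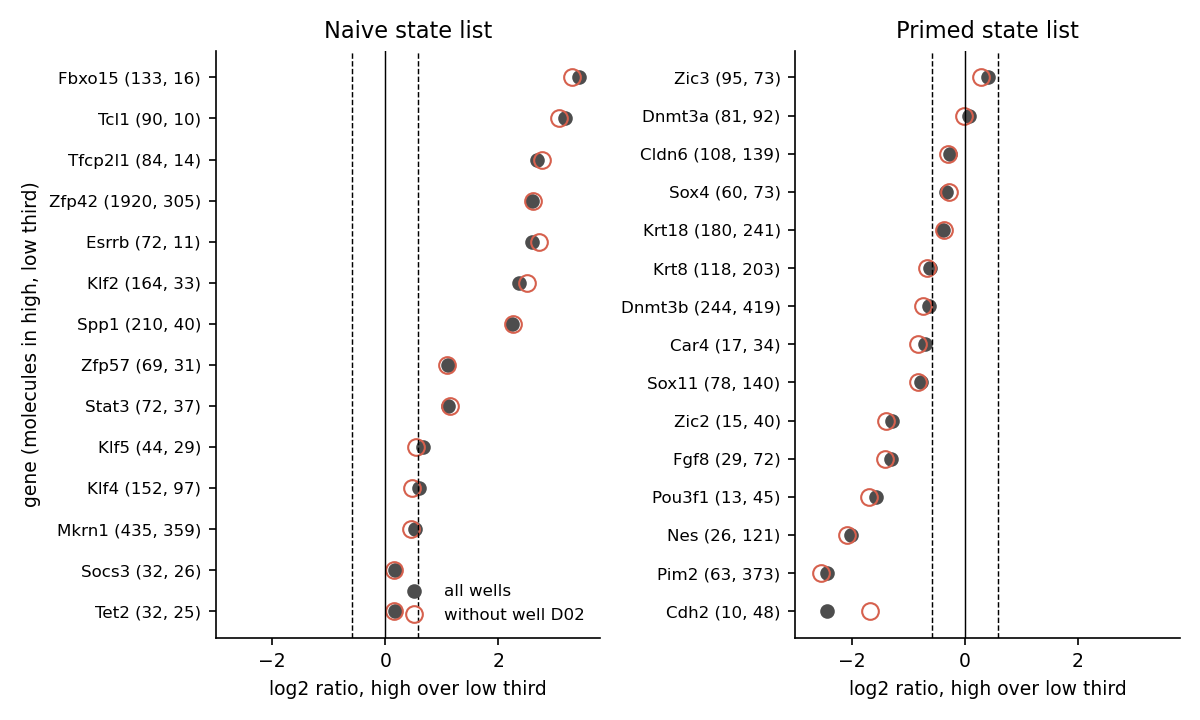
Log2 ratio of high over low wells for the naive (left) and primed (right) genes with at least 50 molecules, with the molecules of both groups behind each name; filled points are all wells, open rings leave out D02, and dashed lines mark a ratio of 1.5. Of 14 naive genes 11 lie past the right line and of 15 primed genes 10, Krt8 of the keratin limit among them, lie past the left line.

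Of 12 other genes detected within 500 kb of Dppa5a, 7 had the higher mean in high wells and 5 in low wells, 58.3% higher beside 45.9% of all genes. Ooep, which encodes another KH-domain protein and belongs to the maternal complex of the oocyte, lies next to Dppa5a at chr9:78376109-78378725 on the same strand. Its level was 0 to 4.01 with a median of 1.09 in high and 0 to 0.506 with a median of 0.206 in low wells, and 9 high wells exceeded every low well. Its log2 ratio was 2.85, from 187 and 24 molecules, a pooled ratio of 8.05 with a counting interval of 5.25 to 12.9. All of its molecules rested on unique reads. Gsta4, a glutathione transferase gene also within 500 kb of Dppa5a, had a median of 6.90 (2.21 to 9.28) in high and 3.64 (1.09 to 8.24) in low wells, a log2 ratio of 0.80. Among the 5 with the higher mean in low wells, Eef1a1, the translation elongation factor, had a log2 ratio of -0.08, and Elovl5, with 31 and 40 molecules, -0.16.

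Dppa2, a SAP-domain chromatin protein encoded on another chromosome, averaged 1.50 ± 1.51 against 0.463 ± 0.341 (SD, n = 13 each), a log2 ratio of 1.69 that was 1.29 without A08. Its partner Dppa4 had a log2 ratio of 0.63, and 0.53, under the limit, without D02. Dppa3 (Stella) had 29 and 5 molecules. The oocyte complex partners of Ooep, Nlrp5 and Khdc3, were at 0, and Tle6 had 1 molecule in each group.

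Of 11 genes of DNA methylation 7 (63.6%, beside 45.9% of all genes) had the higher mean in high and 4 in low wells, and 6 and 5 without D02. Dnmt3l, the catalytically inactive partner of the de novo methyltransferases, had a median of 0.543 (0 to 5.09) in high and 0.135 (0 to 0.517) in low wells, a log2 ratio of 2.76 from 148 and 21 molecules. Dnmt3b, an active de novo methyltransferase, had medians of 1.95 and 1.86, so that its log2 ratio of -0.63 came from 4 low wells above the highest high well, and without D01 it was -0.40. Of the 10 genes of this list with at least 50 molecules 3 were past the ratio higher (Tet1, Dnmt3l and Zfp57) and 1 lower (Dnmt3b), beside 13.6% and 18.1% of all genes so filtered. Of 17 Polycomb and chromatin genes 12 (70.6%) had the higher mean in high and 5 in low wells, and 11 and 6 without D02. Of 15 with at least 50 molecules 5 were past the ratio higher and 2 lower, beside 13.6% and 18.1% of all genes so filtered. Tdrd12, a Tudor protein of the piRNA pathway, had 93 and 13 molecules. Of the 18 detected genes of a germ cell list 16 had the higher mean in high wells, 88.9% beside 45.9% of all genes.

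Of the 12 genes with the largest lower ratios, Pim2 was the one with the lowest log2 ratio when D02 was left out. This serine/threonine kinase, which promotes survival and growth, lies on the X chromosome. Its level was 0.221 to 1.10 with a median of 0.458 in the high wells and 0.181 to 6.60 with a median of 3.18 in the low wells. Of the 13 low wells 9 lay above every high well, while D02 had the lowest value of its group. The mean was 0.512 ± 0.234 (SD, n = 13) in high, 1.29 in middle and 2.76 ± 1.84 (SD, n = 13) in low wells, 5.39-fold lower in the high wells. The sums were 63 and 373 molecules. The log2 ratio was -2.43, and -2.54 without D02.

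Of the other genes with large lower ratios, several depended on D02. Tpm1, a tropomyosin that stabilises actin filaments, was 0.879 to 3.75 with a median of 1.77 in high and 0.968 to 41.99 with a median of 4.23 in low wells, and 7 low wells lay above every high well. Its log2 ratio was -1.90, and -1.22 without D02, which holds the 41.99. Tagln (transgelin) had a log2 ratio of -3.19, and -2.03 without D02. Its relative Tagln2 depended less on that well, at -1.56 and -1.48, with a median of 0.884 in high and 2.58 in low wells. S100a6, Rhoc and Anxa2 had log2 ratios of -2.50, -1.72 and -1.72, and -0.88, -0.84 and -0.46 without D02. Of 17 detected genes of the feeder fibroblast list 14 had the higher mean in the low wells, and 11 without D02. The other 3 make up 17.65%, beside 45.9% of all genes with the higher mean in high wells. Of 11 with at least 50 molecules, which a gene can reach through the low wells alone, 11 were past the ratio lower, 7 without D02, and 4 without A03, C02 and D02. Of all genes so filtered 18.1% were lower, and 18.8% without D02. The part of feeder material in these values was not tested.

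Gja1, the gap junction protein connexin 43, did not depend on D02: it was 0.307 to 2.19 with a median of 1.26 in high and 0.845 to 6.69 with a median of 2.84 in low wells, a log2 ratio of -1.34, and -1.38 without that well. Marcks, an actin-binding substrate of protein kinase C, had 29 and 168 molecules, and 8 low wells lay above every high well. Ccnd1 (cyclin D1), which drives entry into the cell cycle, averaged 1.37 ± 0.741 against 2.99 ± 1.84 (SD, n = 13 each), a log2 ratio of -1.13. Id1 and Id2, targets of BMP signalling that block differentiation factors, had log2 ratios of -1.58 and -1.21, but their relative Id3 was at 0.15. Of 9 detected genes of the BMP and Id list 3 had the higher mean in high wells and 6 in low wells (33.3% higher, beside 45.9% of all genes). Sfn (14-3-3 sigma) was at -1.55, but C02 alone held 25.7 and without it the log2 ratio was -0.49. Fst, a follistatin that binds activin, had 19 and 149 molecules with 1 well, D01, behind most of them, at -2.97 and at -1.83 without D01.

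**Figure D4:**
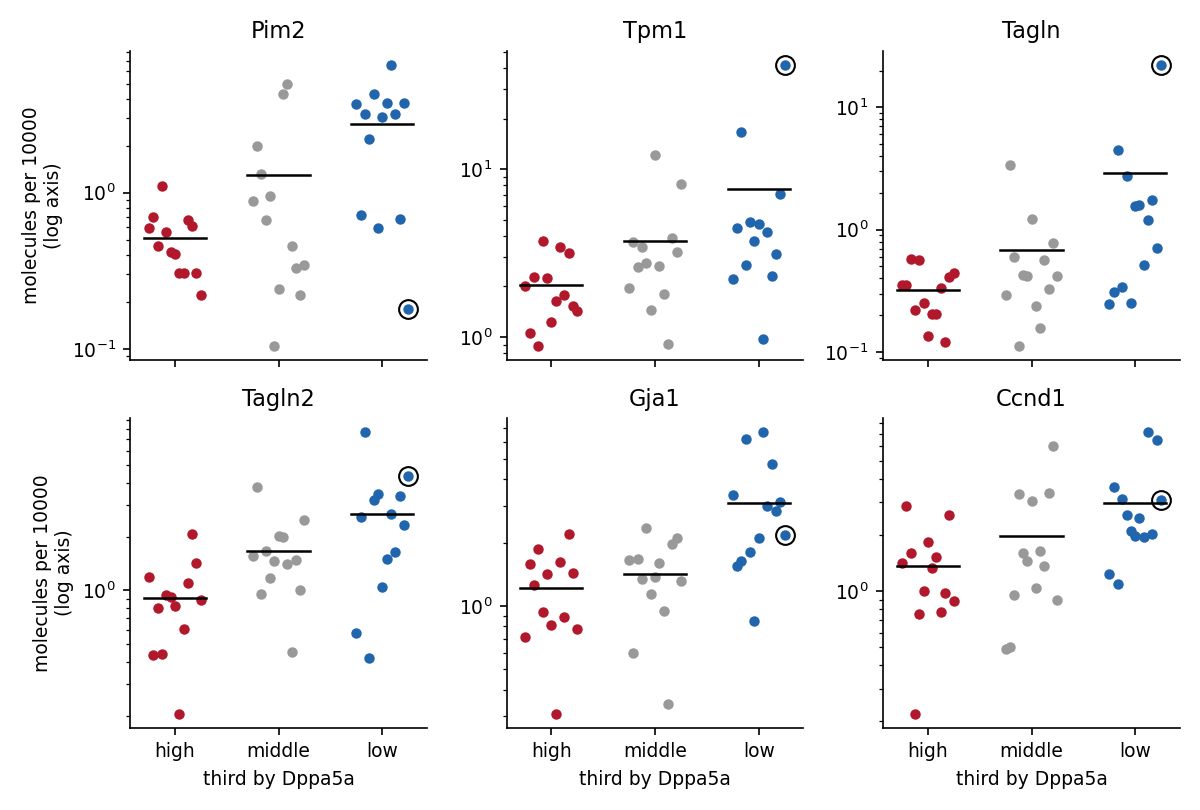
Levels of 6 genes that were lower in high wells (molecules per 10000, log axes), 1 point for each of 13 wells in the high, middle and low groups; lines are means and the ringed point is D02. In Pim2 9 low wells lie above every high well and D02 lies at the bottom, whereas in Tpm1 and Tagln D02 is the highest well.

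The primed list leaned the other way from the naive list. Of its 23 genes, all detected, 20 had the higher mean in the low wells and 3 in the high wells (13.0%, beside 45.9% of all genes). Without D02 these were 21 and 2. Of 15 with at least 50 molecules 10 were past the ratio lower and none higher, also without D02, at a median log2 ratio of -0.71. Of all genes so filtered 18.1% were lower and 13.6% higher. Krt8, on which the keratin limit was set, is 1 of the 10 and enters the counts and the sum of this list. Besides Krt8, Pim2 and Dnmt3b the 10 included Nes (nestin, 26 and 121 molecules), Pou3f1 (Oct6, 13 and 45), Fgf8 (29 and 72), Zic2 (15 and 40) and Sox11 (78 and 140), all regulators or markers of the epiblast and early neural tissue. T (brachyury), the mesoderm factor, had 0 molecules in high and 34 in low wells, Otx2 3 and 16, Fgf5 4 and 16, and Eomes 1 and 15. Single wells carried much of these low sums: without the low well that held most of each, T had 21, Otx2 9, Fgf5 8 and Eomes 8 molecules left. The summed level of the list was 6.43 to 14.6 in the high and 9.59 to 25.3 in the low wells, and 8 low wells lay above every high well. The highest sum among the high wells was that of B10, the well with low Zfp42 and Tdh.

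Immediate early genes, which respond within minutes to growth factors and to handling of cells, were lower as well. Of the 18 genes of this list 16 had the higher mean in low wells and 2 in high wells (11.1%, beside 45.9% of all genes). At 50 or more molecules 9 of 16 were past the ratio lower and none higher, beside 18.1% and 13.6% of all genes so filtered. Among the 9 were Junb (19 and 107 molecules), Fos (145 and 274), Egr1 (114 and 220) and Btg2 (53 and 152). Single wells weighed on this group: Egr1 had a log2 ratio of -0.88, and -0.22 without B05, which held 8.80, Fos was at -0.71 and at -0.48 without B05, and Junb was at -2.59 and at -1.84 without A03. Over ranked wells with fewer gene molecules than the median well, Fos and Egr1 had log2 ratios of 0.42 and 0.16, opposite to those over all wells.

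Few genes of housekeeping groups were past the ratio, beside 6.91% higher and 7.76% lower of all genes at a mean level of at least 1. Calls were also few among abundant genes of any kind, with 0 higher and 1 lower of the 126 genes at a level of 10 or more. No share at a matched level was computed, so the low counts are not read as a trait of these groups. Of 78 ribosomal protein genes at a level of at least 1, 1 was past the ratio higher and 1 lower, with a median log2 ratio of -0.05. The higher gene was Rps4y2, annotated as a copy of the small subunit protein S4, at 10.8 ± 3.36 against 6.36 ± 3.18 (SD, n = 13 each). None of 25 mitochondrially encoded genes, 29 translation factors or 24 splicing factors was past it, and of 75 respiratory chain genes 2 were lower. Among 13 glycolysis genes 1 was lower. Of 10 genes of threonine and one-carbon metabolism 2 were higher, beside 6.91% of all genes: Tdh and the glycine cleavage gene Gcsh at 0.65 (0.58, under the limit, without D02), and 1 was lower, with a list median of -0.17.

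Of 40 genes of G2 and M phase 31 had the higher mean in high wells (77.5%, beside 45.9% of all genes), and 26 without D02. Of the 22 at a level of at least 1, 2 were past the ratio higher and none lower, with a median log2 ratio of 0.20, and 0.12 without D02. Of 31 genes of G1 and S phase 13 had the higher mean in high wells, and of 19 at that level none was past the ratio higher and 2 lower, with a median of -0.07.

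Repeat molecules per gene molecule were 0.992 ± 0.204 in high and 0.895 ± 0.283 in low wells (SD, n = 13 each), a difference within their spread. Of 237 repeat types with a mean level of at least 1, 71 (30.0%) were past the ratio higher and 6 (2.53%) lower, but 35 were higher without A08 and 109 without D01. A type that did not depend on A08 was RLTR9E, the long terminal repeat of an endogenous retrovirus, with 1.46 to 11.8 in high and 0.362 to 3.20 in low wells. Its median was 8.69 and 1.64, 12 of the 13 high wells lay above every low well, and its log2 ratio was 2.08, and 2.02 without A08. RLTR1B was at 2.60, and 2.52 without A08. ERVB4_1C-LTR_Mm was lower, at 0.638 ± 0.805 against 2.63 ± 2.22 (SD, n = 13 each). L1Md_T, a young LINE-1 type, was at 91.1 ± 55.8 against 44.7 ± 24.5 (SD, n = 13 each), with 1 high well, A08, above every low well. Without A08 the mean of L1Md_T in the high wells was 76.9 and its log2 ratio 0.78.

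The pattern was looked for in the 46 wells that failed the limit on gene molecules alone. There the top 15 wells by Dppa5a had a mean of 51.4 ± 20.2 (SD, n = 15) per 10000 and the bottom 15 had 29.3 ± 2.88 (SD, n = 15), a much narrower contrast at 21335 and 25565 gene molecules per well. The medians were 45.5 and 29.8. The top wells include H12, which held 122 per 10000 with 926 spike-in molecules, where the next lowest of these wells, D04, had 4572. H12 was not left out. Zfp42 was at 5.56 ± 2.42 and 6.0 ± 2.27 (SD, n = 15 each), and Tdh, from 37 and 49 molecules, at 1.14 ± 0.595 and 1.27 ± 0.825 (SD, n = 15 each), with the higher mean in the bottom wells for both genes. Of the 12 genes with the largest higher ratios 4 kept their sign and 1 was past the ratio, and of the 12 with the largest lower ratios 7 kept their sign and 1 was past it. What these wells hold was not tested.

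**Figure D5:**
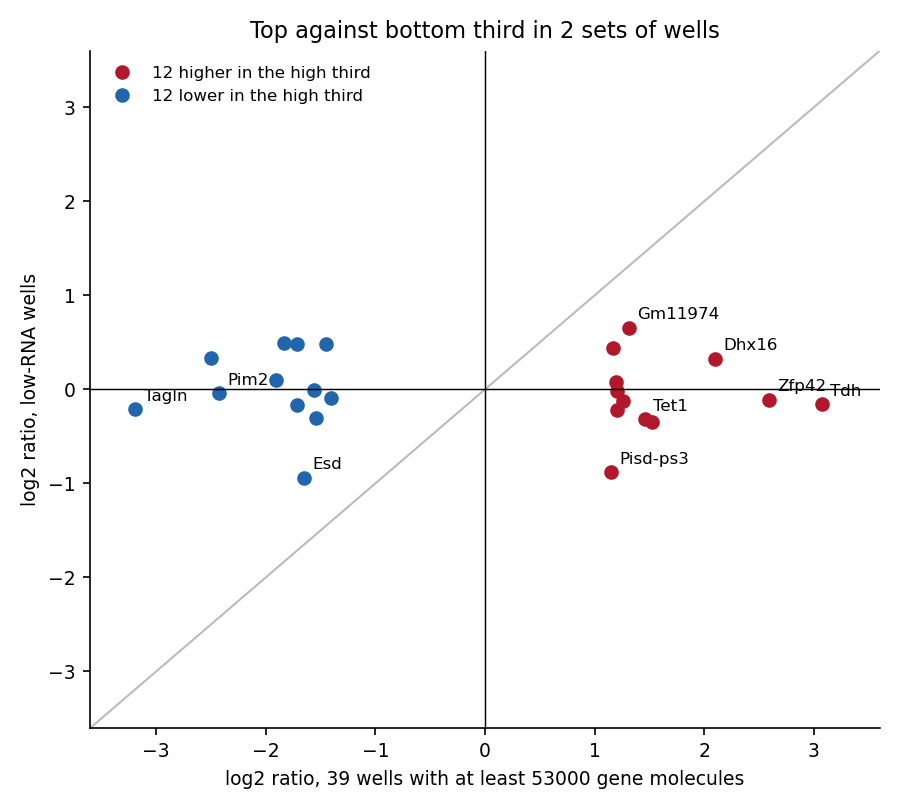
Log2 ratio of the top over the bottom group by Dppa5a in wells with few gene molecules (vertical axis, 15 wells each) against that in the 39 ranked wells (horizontal axis, 13 wells each) for the 24 genes with the largest ratios. The points scatter around 0 on the vertical axis, with Zfp42 and Tdh slightly under it, and only Gm11974 and Esd past a ratio of 1.5 in the same direction.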

How the data were processed

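The deposited table holds molecule counts per gene, repeat type and spike-in for 96 wells, made by the authors; per the file headers, reads that map to several places were given to the most 5' exonic hit and repeat types were summed over both strands. Bowtie and the build mm10 (GRCm38) are named in the submitters' processing notes; the version is not given in the sources used here. Per the labels, each cell was sequenced as a form with 21 cycles of PCR on the chip and a form with 9 further cycles, and 1 column stands for both. Levels are molecules per 10000 gene molecules without Dppa5a, from 53975 to 149091 gene molecules per well in the compared groups. Scarce genes, with a few molecules per well, are the least precise. No doublet caller was run, since 1 chip gives too few wells for it. Computation used Python 3.11.15, numpy 2.4.6, pandas 2.3.3 and scipy 1.17.1, tested on simulated counts. Named genes are the 12 largest ratios in each direction that kept a ratio of 1.25 without any 1 well and had at least 50% unique molecules, the 5 highest and 5 lowest rho, up to 3 most abundant and 3 past the ratio from each list, the Dppa list, and genes within 500 kb of Dppa5a. Genes named with molecules only, and the genes Fbxo15, Klf2, Esrrb, Tfcp2l1, Tcl1, Spp1, Stat3, Zfp57, Klf5, Dnmt3l, Marcks, Sox2, Nanog, Pou5f1, Junb and Btg2, the zinc finger genes of chromosome 4 and the repeat types named, were chosen after their values were seen. The wells, members and lists were chosen with earlier results of these data known.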

Additional observations from a re-analysis of the deposited data

How the results depend on the processing

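No paired analysis was possible because each column of the table stands for both library forms of a cell, so that replicate numbers pair no wells across groups. The alternatives without D02, without A08, without A03, C02 and D02, leaving out each well, and at least 50 molecules were chosen after seeing the data. All 24 genes with the largest ratios kept their sign under the alternatives tried, except Cd9 (-0.032) without the keratin limit, and in the wells with few gene molecules. The 106 higher and 119 lower genes became 47 and 66 with the ranked wells split in 2, 266 and 331 at a mean level of at least 0.5, 10 and 14 at 3, 38 and 34 at a ratio of 2, 1254 and 1696 with no filter and 0.1 added, 729 and 968 at 50 molecules, 175 and 210 in wells under the median gene molecules, and 181 and 190 at or over it; leaving out each well in turn gave 93 to 119 and 110 to 131. The cause of these moves was not tested, beyond the numbers of genes and wells that each alternative sets.

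In the wells with few gene molecules 59 genes were lower, and log2 ratios with the opposite sign were Tdh -0.16, Zfp42 -0.11, Senp3 -0.35, Tet1 -0.32, Jarid2 -0.13, Cd9 -0.016, Sgol1 -0.22, Pisd-ps3 -0.88, Dppa4 -0.070, Rps4y2 -0.069, S100a6 0.33, Tpm1 0.10, Tpm4 0.49, Cyr61 0.48, Rhoc 0.49, Gja1 0.35, Dnmt3b 0.056 and Fos 0.18. There 1 naive, 2 primed, 3 immediate early and 0 feeder genes were past the ratio in the direction of the ranked wells. Medians over list members at a mean level of at least 1 were there primed 0.38, feeder 0.38, Polycomb -0.11, glycolysis 0.21, antioxidant 0.31, heat shock 0.22, cholesterol 0.33, proteasome 0.22, translation 0.30, respiratory chain 0.37, ribosomal 0.28 and mitochondrial -0.36, and the top minus bottom wells differed by -6.94 points in mitochondrial share, 1.81 in ribosomal share and -0.39 repeat molecules per gene molecule. Under other alternatives the primed median was -1.80 and the ribosomal 0.067 without the keratin limit; the antioxidant median was -0.18 with ranking per spike-in molecule, -0.25 under and 0.38 at or over the median gene molecules; the immediate early median over 4 genes was 0.29 under it and -1.64 over it, and over the 16 genes with 50 molecules -0.14 and -1.24; Nodal was 1.35 under it, and DNA methylation -0.34 and feeder -0.30 over it. Egr1 was 0.16 and Fos 0.42 under the median, and Dnmt3b 0.065 as a ratio of medians. Immediate early genes past the ratio numbered 4 with the wells split in 2 and 5 with ranking per spike-in molecule. Feeder genes past it numbered 3 by medians, 6 without the highest well of each group, 6 at or over the median gene molecules, 7 without D02 and 4 without A03, C02 and D02, where the median was -0.39 over these 11 genes and -0.45 over the 8 at a mean level of at least 1. Genes at a few molecules per well are limited by counting error.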

Other observations

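Further values concern single wells and gene families. The repeat MT2_Mm, the long terminal repeat that drives transcripts of the early embryo, was at 73.4 molecules per 10000 in A08 and at most 12.2 in the other high wells. L1Md_A was at 230 in A08 and at most 94.4 in the other high wells. Mreg had a log2 ratio of 3.89 of which A08, with a level of 21.0, held the larger part, since it was 1.81 without that well. Hsd17b14, a steroid dehydrogenase gene, had 88 and 8 molecules, and 10 high wells lay above every low well. These genes were chosen after their values were seen.

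Zinc finger genes of a repeated cluster on chromosome 4 were higher as well, Gm13247 at a log2 ratio of 1.63 and Gm13242 at 1.48, but only 24.8% and 2.1% of their molecules rested on unique reads, so that the members cannot be told apart. Of 93 genes on chromosome 6 at a mean level of at least 1, 15 were past the ratio higher, of which 8 were copies of Rn4.5s without unique reads.

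Some further lists are given beside the 6.91% higher and 7.76% lower of all genes at a mean level of at least 1. Of 15 antioxidant genes 2 were higher and 2 lower, of 19 heat shock genes and chaperones 1 was higher and none lower, and of 28 proteasome genes 1 was higher and none lower. Of 5 cholesterol synthesis genes none was higher and 2 were lower. Of 4 Nodal pathway genes 1 was higher and none lower, of 4 p53 targets none and 1, and of 5 genes of the integrated stress response none either way. Of 14 imprinted genes with at least 50 molecules none was higher and 6 were lower, 4 without D02, beside 18.1% of all genes so filtered. Over all detected members 19 of 26 cholesterol synthesis, 13 of 17 p53 and 14 of 24 imprinted genes had the higher mean in low wells. So did 9 of 10 primitive endoderm genes (7 without D02), 5 of 9 trophectoderm genes and 5 of 8 neural and mesendoderm genes. The higher mean was in high wells for 7 of 10 LIF and Stat3, 8 of 13 FGF and ERK and 9 of 12 nuclear noncoding genes. Of all genes 45.9% had the higher mean in high wells.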
